A study of Mus musculus with 6 samples.

Results

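The genes described here are 10 stromal fibroblast matrix genes, Postn, Dcn, Lum, Fbln1, Fbn1, Fn1, Sparc, Mfap5, Pi16 and Dpt. They were taken by name from the unfiltered raw count table and make up 10 of its 43280 rows. The list was chosen with earlier results of these data known, so its counts beside all rows are a description and not a test. All 10 passed the filter of at least 10 counts summed over the libraries. The 6 libraries were made from whole submandibular glands (SMGs) of female C57BL/6 mice, which the study describes as adult, 3 from wildtype (WT) mice and 3 from mice lacking both Hs3st3a1 and Hs3st3b1 (DKO), and the labels number both sets 1, 4 and 5. In DKO mice, Hs3st3a1 carries a frameshift deletion made by a zinc finger nuclease in its first exon, Hs3st3b1 carries a LacZ cassette, and both lesions sit on the same allele in all cells. Several founder lines with different deletions were made, and the labels do not say which line gave these glands. The comparison asked how loss of both enzymes, which add a 3-O-sulfate to heparan sulfate chains, is reflected in the RNA of the gland.

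Fibroblasts of the gland stroma lay down the interstitial matrix around acini, ducts and vessels. Collagen fibrils are coated by small leucine-rich proteoglycans such as decorin and lumican, fibrillin microfibrils give elasticity and hold latent growth factors, and matricellular proteins such as periostin and SPARC sit in the same matrix and act on collagen assembly and on cells through integrins. Several of these genes are also made by smooth muscle, endothelial, myoepithelial or mesothelial cells, so none of them marks fibroblasts alone. In RNA of a whole gland, fewer cells of a type and less RNA per cell cannot be told apart.

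Total counts ranged from 23674258 to 29611975 per library, and size factors ranged from 0.867 to 1.12. Libraries of 1 group differed from each other by far more than sampling noise, with chi-square values of 17.0 to 43.9 per degree of freedom, so each was counted as 1 replicate. The labels do not say whether the glands came from separate animals, so the p-values measure only the spread between these libraries, which may be technical. Across all genes, DESeq2 called 350 of 18606 tested rows lower and 189 higher in DKO at an adjusted p under 0.05, and with total counts as size factors these became 1407 lower and 62 higher. The targeted genes did not separate the groups in counts. Hs3st3b1 had 173, 203 and 261 counts in WT and 255, 120 and 189 in DKO (log2 fold change -0.04, adjusted p = 0.976 in DESeq2). For Hs3st3a1 the counts were 15, 11 and 15 in WT against 11, 8 and 13 in DKO (log2 fold change -0.22, adjusted p = 0.947 in DESeq2). A count per gene says nothing of a small deletion or of where along the gene its reads fall, so directions below are those of the libraries labelled DKO against those labelled WT.

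Of the 10 genes, 4 were lower in DKO at an adjusted p under 0.05 in DESeq2, namely Postn, Dcn, Fbn1 and Pi16, against 1.88% of all rows tested. None of the 10 was called higher, against 1.02% of all rows, and at an unadjusted p under 0.05 the number higher was also 0 in DESeq2, edgeR and limma-voom. An unadjusted p under 0.05 with a lower level was reached by 8 of the 10, against 7.26% of all rows. The log2 fold change was negative for 9 of the 10, against 49.8% of all rows, and Sparc was the exception. The median log2 fold change of the 10 genes was -0.73, beside 0.00 for all rows tested. Every DKO library lay below every WT library for 3 genes, Postn, Dcn and Lum, against 10.5% of all rows. With edgeR and limma-voom, 0 of the 10 genes were called, although 8 and 6 of them had an unadjusted p under 0.05. The share of all rows at an unadjusted p was taken for DESeq2 only. With total counts as size factors, DESeq2 called 6 lower (Postn, Dcn, Lum, Mfap5, Pi16 and Dpt), against 7.56% of all rows. edgeR and limma-voom called 0.0537% and 0.0376% of all rows in either direction.

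**Figure D1:**
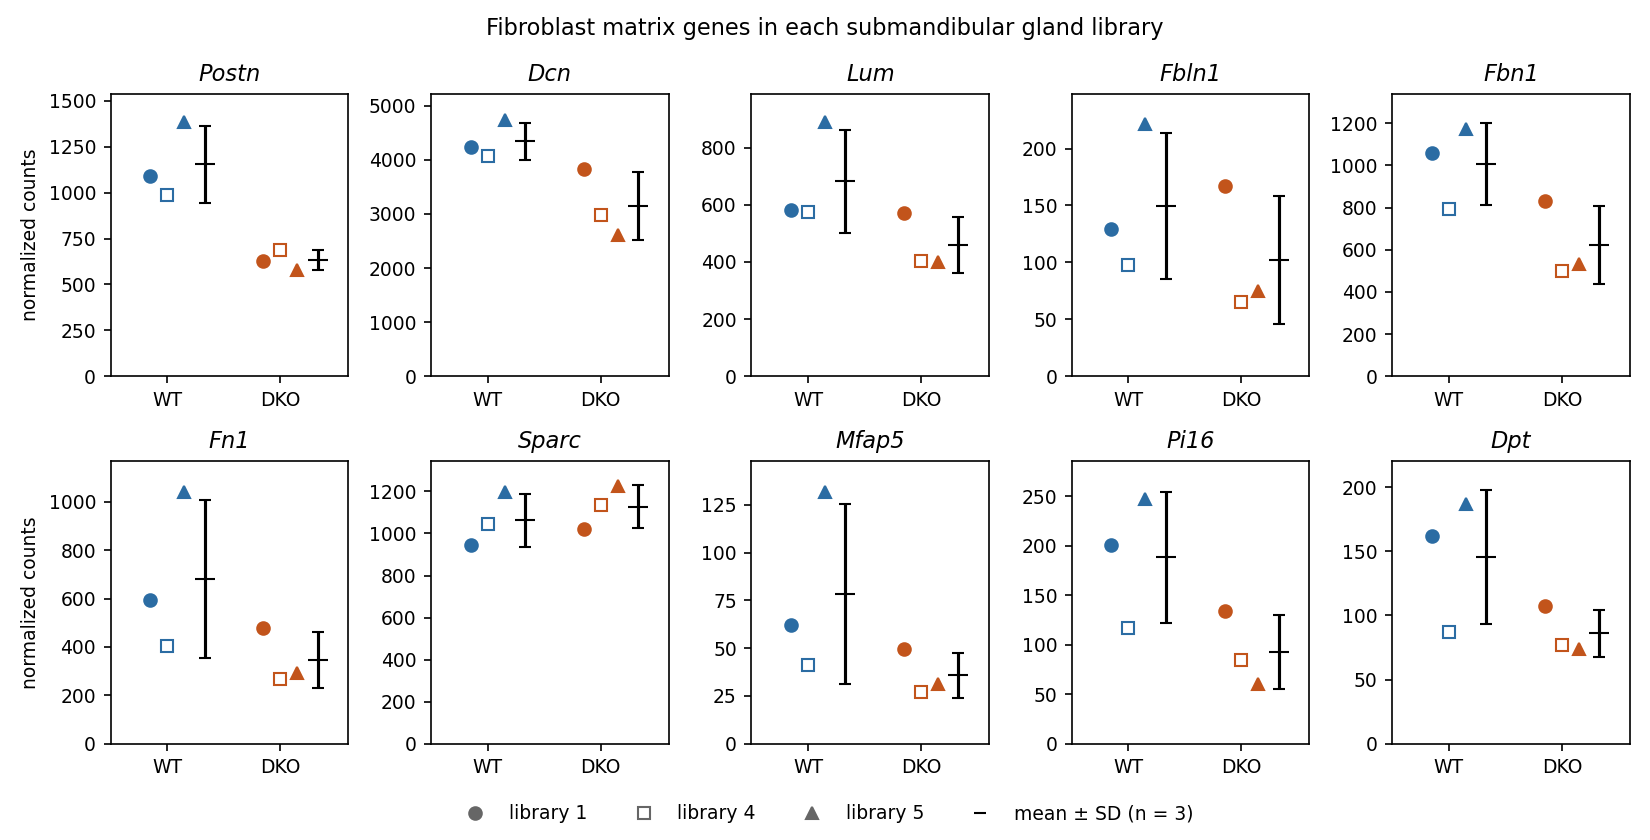
Normalized counts of the 10 matrix genes in each library, with 1 panel per gene and a y axis starting at 0. Points are single libraries, marked by their number, and bars are the mean ± SD of 3. WT 5 was the highest WT library in all 10 panels, and the DKO points lie wholly below the WT points for Postn, Dcn and Lum.

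Postn encodes periostin, a secreted matricellular protein that binds collagen, fibronectin and tenascin-C and is recognised by the αv integrins. The gene lies on the plus strand of chromosome 3 (GRCm38, 54361109 to 54391037). Normalized counts of Postn were 1089, 986 and 1386 in WT 1, 4 and 5 and 630, 689 and 581 in DKO 1, 4 and 5. All DKO libraries were below all WT libraries, and the gap between the groups was larger than the spread inside DKO but smaller than that inside WT. The mean fell from 1153 ± 208 to 633 ± 53.9 (SD, n = 3), to 54.9% of WT, and the log2 fold change was -0.87 (SE 0.15, adjusted p = 1.88e-06 in DESeq2). Postn was the only one of the 10 genes that stayed under the threshold whichever library was left out, with log2 fold changes of -0.96 to -0.71. The highest adjusted p of those fits was 0.00108, without DKO 5. The smallest change came without WT 5, the library in which Postn was highest. In edgeR and limma-voom, its adjusted p-values were 0.0765 and 0.0826. Myoepithelial cells, which contract around acini and ducts, can also make periostin, and a list of their markers summed to 10495 to 11352 normalized counts in WT and 5738 to 7655 in DKO, with no overlap. The part of those cells in the level of Postn was not tested.

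The RefSeq promoter table (GRCm38.p6) held entries for 6 of the 10 genes, Postn, Fbln1, Fbn1, Sparc, Pi16 and Dpt, each covering 250 bases before to 50 bases after a transcription start. Windows are shown for Postn, Fbln1 and Dpt, the genes whose RefSeq start lay at most 19 bases from the gene start of the GENCODE annotation, so that a gene called under every left-out library can be read beside genes that were not called with all 6. All are on the plus strand, at chr3:54360857-54361156, chr15:85205699-85205998 and chr1:164796413-164796712. Capitals mark the TATA element TATAAA and the E-box CANNTG, the motif bound by basic helix-loop-helix factors.
Postn: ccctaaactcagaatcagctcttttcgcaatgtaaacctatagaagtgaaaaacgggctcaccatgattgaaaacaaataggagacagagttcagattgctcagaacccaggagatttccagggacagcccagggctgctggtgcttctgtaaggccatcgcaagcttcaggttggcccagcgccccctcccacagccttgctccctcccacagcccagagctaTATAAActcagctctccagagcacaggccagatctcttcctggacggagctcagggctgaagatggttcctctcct
Fbln1: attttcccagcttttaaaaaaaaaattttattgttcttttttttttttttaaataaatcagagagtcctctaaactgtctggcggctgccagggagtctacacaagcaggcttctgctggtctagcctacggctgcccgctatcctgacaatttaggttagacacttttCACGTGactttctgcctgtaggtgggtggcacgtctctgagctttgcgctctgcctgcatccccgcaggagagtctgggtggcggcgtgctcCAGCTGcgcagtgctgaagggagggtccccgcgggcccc
Dpt: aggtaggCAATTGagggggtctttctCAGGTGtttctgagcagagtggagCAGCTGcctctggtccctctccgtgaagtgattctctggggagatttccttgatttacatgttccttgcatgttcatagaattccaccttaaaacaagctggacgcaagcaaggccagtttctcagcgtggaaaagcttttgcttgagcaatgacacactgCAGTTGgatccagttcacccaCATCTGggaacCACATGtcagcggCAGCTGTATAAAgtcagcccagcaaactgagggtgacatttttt
Both strands were searched, and the E-box reads the same on both. The Postn window held 1 TATAAA, at -26 from the RefSeq start, and no E-box. The Dpt window held 1 TATAAA at 12 bases past its start and 7 E-boxes, and the last E-box touched the TATAAA without sharing a base. The Fbln1 window held no TATAAA and 2 E-boxes. Postn and Fbln1 each had 1 further RefSeq start, 1842 and 59 bases from the gene start, whose windows are not shown. That of Postn held neither motif, and that of Fbln1 held 2 E-boxes and no TATAAA. Of 32851 RefSeq windows of the same length, 13.6% held TATAAA and 72.3% held an E-box. The other motifs searched had no match in the 3 windows shown, and the further Fbln1 window held 2 GGGCGG sites. They were the Sp1 motif GGGCGG, which 35.7% of all windows held, the AP-1 motif TGANTCA, held by 7.81%, the TEAD motif CATTCC, held by 14.7%, and the CArG box, held by 1.63%.

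Dcn and Lum encode decorin and lumican, small leucine-rich proteoglycans that bind collagen fibrils and set their diameter and spacing. Both lie on the plus strand of chromosome 10, Dcn from 97479609 to 97518143 and Lum from 97565128 to 97572703, with 47.0 kb between them. Dcn was the most abundant of the 10 genes per length. Its normalized counts were 4232, 4075 and 4730 in WT and 3835, 2978 and 2610 in DKO, so that all DKO libraries were below all WT libraries, with DKO 1 nearest to WT. The mean fell from 4346 ± 342 to 3141 ± 628 (SD, n = 3), with a log2 fold change of -0.47 (SE 0.14, adjusted p = 0.0305 in DESeq2). With a library left out, the log2 fold change of Dcn stayed negative, between -0.64 and -0.35, but the call was mostly lost. The call was kept only without DKO 1, with an adjusted p of 1.11e-05 in DESeq2. It was lost in DESeq2 without WT 1 (adjusted p = 0.191), WT 4 (0.0541), WT 5 (0.367), DKO 4 (0.200) or DKO 5 (0.296). Normalized counts of Lum were 582, 573 and 889 in WT and 571, 405 and 399 in DKO. WT 5 stood above the other WT libraries, and DKO 1 lay just below WT 4. The log2 fold change of Lum was -0.57 (SE 0.20) and did not pass the test (adjusted p = 0.0854 in DESeq2), and of the fits with a library left out it passed only in that without DKO 1 (adjusted p = 0.0175).

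Fbn1 and Mfap5 encode fibrillin-1, the backbone of microfibrils, and MAGP-2, a small glycoprotein bound to them. Fbn1 lies on the minus strand of chromosome 2 (125300594 to 125507993) and Mfap5 on the plus strand of chromosome 6 (122505845 to 122529290). Normalized counts of Fbn1 were 1061, 791 and 1172 in WT and 833, 499.6 and 530 in DKO. DKO 1 lay above WT 4, so the groups overlapped by that pair alone. The mean of Fbn1 fell from 1008 ± 196 to 621 ± 184 (SD, n = 3), with a log2 fold change of -0.70 (SE 0.20, adjusted p = 0.0228 in DESeq2). Without WT 4 or DKO 1 the call was kept, and it was lost in DESeq2 without WT 1 (adjusted p = 0.259), WT 5 (0.374), DKO 4 (0.252) or DKO 5 (0.290). With total counts as size factors its DESeq2 adjusted p was 0.0874. Mfap5, the least abundant per length, had 62.3, 41.1 and 132 normalized counts in WT against 49.3, 27.2 and 31.1 in DKO. WT 5 alone held more than the other WT libraries together, and DKO 1 was above WT 4. Its log2 fold change of -1.13 (SE 0.44) was the most negative of the 10 and did not pass the test (adjusted p = 0.146 in DESeq2). It halved to -0.52 without WT 5, and it passed without WT 4 (adjusted p = 0.0319).

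Pi16 and Dpt mark a fibroblast state found around vessels and in the adventitia of many mouse tissues. Pi16 encodes peptidase inhibitor 16, a membrane-anchored member of the CAP family, and lies on the plus strand of chromosome 17 (29317680 to 29330593). Dpt encodes dermatopontin, a small matrix protein that binds decorin, and lies on the plus strand of chromosome 1 (164796644 to 164824266). Pi16 had 201, 116 and 247 normalized counts in WT against 134, 84.7 and 60.0 in DKO. DKO 1 was above WT 4, and the other DKO libraries were below all WT libraries. The mean of Pi16 fell from 188 ± 66.3 to 92.8 ± 37.6 (SD, n = 3), with a log2 fold change of -1.02 (SE 0.32, adjusted p = 0.0487 in DESeq2). This value was close to the threshold, and without a count filter the adjusted p was 0.0525. The call was kept in DESeq2 without WT 4 (adjusted p = 0.00565) or DKO 1 (0.00661) and lost without WT 1 (0.375), WT 5 (0.550), DKO 4 (0.305) or DKO 5 (0.391). Dpt had 162, 87.1 and 187 normalized counts in WT against 107, 77.3 and 73.8 in DKO. Again only DKO 1 and WT 4 were out of order. The log2 fold change of Dpt was -0.75 (SE 0.30), which did not pass the test (adjusted p = 0.161 in DESeq2). Of the fits with a library left out, it passed in that without WT 4 (adjusted p = 0.00579).

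Fn1 and Fbln1 encode fibronectin, the glycoprotein on which cells assemble other matrix, and fibulin-1, a calcium-binding glycoprotein of elastic fibres and basement membranes that binds fibronectin. Fn1 lies on the minus strand of chromosome 1 (71585520 to 71653200) and Fbln1 on the plus strand of chromosome 15 (85205949 to 85286535). Normalized counts of Fn1 were 594, 404 and 1042 in WT and 477, 267 and 294 in DKO. WT 5 was far above the other WT libraries, and DKO 1 was above WT 4. Its mean was 680 ± 327 in WT and 346 ± 115 in DKO (SD, n = 3), and its log2 fold change of -0.97 (SE 0.47) did not pass the test (adjusted p = 0.318 in DESeq2). It ranged from -1.28 to -0.53 over the left-out libraries and never passed. Fbln1 had 130, 97.8 and 221 normalized counts in WT against 167, 64.8 and 74.9 in DKO, so that DKO 1 was above WT 1 and WT 4. Its log2 fold change was -0.55 (SE 0.37, adjusted p = 0.590 in DESeq2) and moved between -1.10 without DKO 1 and -0.15 without WT 5.

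Sparc encodes a collagen-binding matricellular glycoprotein, also called osteonectin, made by fibroblasts and by endothelial cells and pericytes. It lies on the minus strand of chromosome 11 (55394500 to 55423183). Sparc had 947, 1044 and 1198 normalized counts in WT against 1022, 1137 and 1226 in DKO. The groups lay over each other, and the means were 1063 ± 127 and 1128 ± 102 (SD, n = 3). The log2 fold change was 0.08 (SE 0.13, adjusted p = 0.881 in DESeq2) and stayed between 0.01 and 0.18 whichever library was left out. With total counts as size factors it was -0.15 (adjusted p = 0.471 in DESeq2), and the median of all rows was then -0.23. The ratio of Sparc to Dcn was 0.224, 0.256 and 0.253 in WT and 0.266, 0.382 and 0.470 in DKO, so within every DKO library Sparc was higher relative to Dcn than in any WT library. Because this ratio was chosen after its values were seen, it was not tested.

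**Figure D2:**
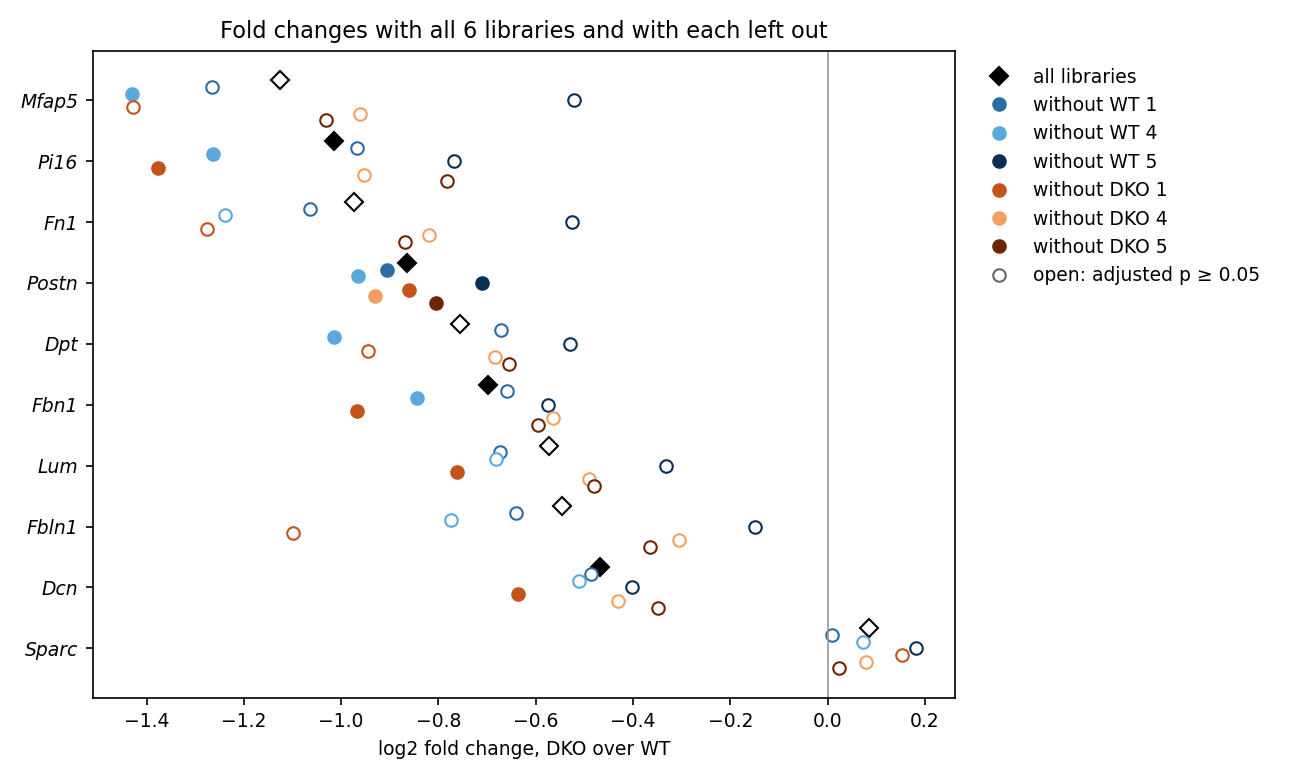
Log2 fold change of DKO over WT for each matrix gene (x axis) with all 6 libraries (diamonds) and with each library left out in turn (circles). Filled symbols had a DESeq2 adjusted p under 0.05. Postn was filled in all 6 left-out fits, and the point without WT 5 was the nearest to 0 for 7 of the 9 genes with a negative change.

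The libraries held the genes in a common order. WT 5 was the highest WT library for all 10 genes, whereas it was the highest for 26.4% of the 11489 rows with a mean of at least 50 normalized counts. WT 4 was the lowest WT library for 9 of 10, against 31.5% of those rows, and the exception was Sparc. DKO 1 was the highest DKO library for 8 of 10, against 31.1%, and the exceptions were Postn, highest in DKO 4, and Sparc, highest in DKO 5. The 10 genes took 0.0387%, 0.0311% and 0.0458% of all counts in WT 1, 4 and 5 and 0.0292%, 0.0201% and 0.0197% in DKO 1, 4 and 5. The number of genes called changed with the library left out. Without WT 4 or DKO 1, the libraries nearest to the other group, 5 of the 10 genes were called lower, against 3.14% and 2.38% of all rows. Without WT 1, WT 5, DKO 4 or DKO 5, Postn alone was called, against 0.522%, 0.495%, 0.557% and 0.551% of all rows.

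**Figure D3:**
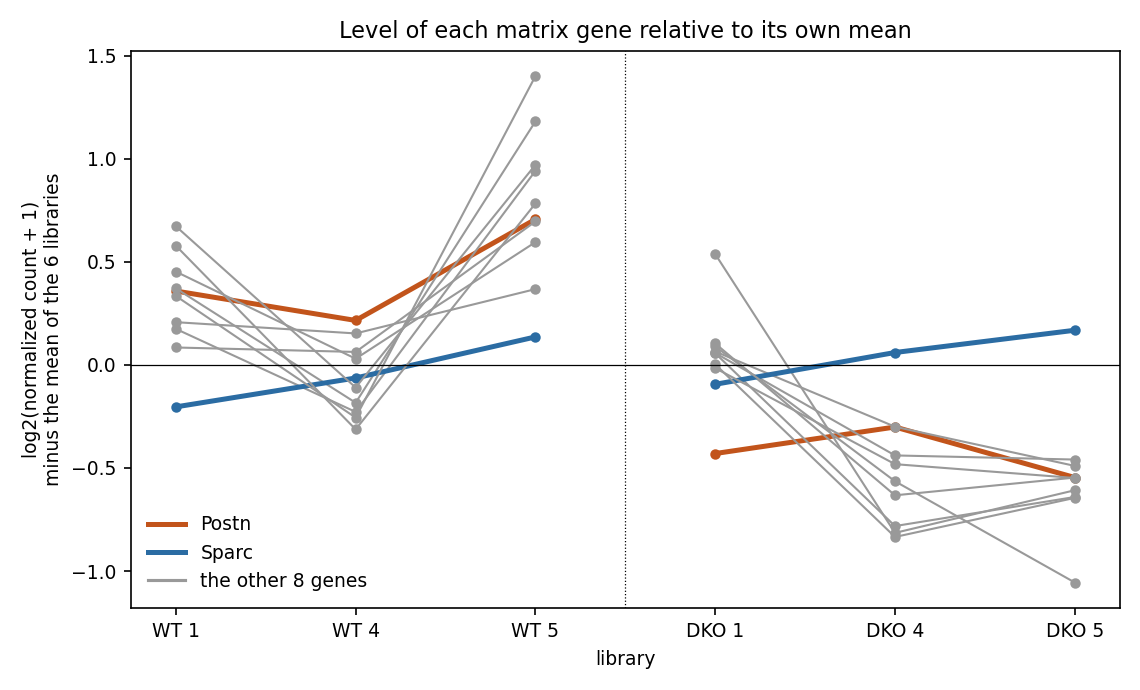
Level of each matrix gene in each library as log2(normalized count + 1) minus its mean over the 6 libraries (y axis). Each line is 1 gene, and lines join points only to identify the gene. Postn stays low in DKO 1, where the 8 genes in grey are between -0.02 and 0.54, and Sparc stays within -0.20 and 0.17 of its mean in all libraries.

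Postn departed from the other 9 genes in DKO 1. The ratio of Postn to the summed normalized counts of the other 9 was 0.137, 0.136 and 0.141 in WT and 0.0876, 0.124 and 0.110 in DKO. The WT ratios were within a narrow range, and all DKO ratios were below them, with DKO 1 the lowest. The sum is weighted to abundant genes, since Dcn alone gave 4232 of its 7971 normalized counts in WT 1. It also holds Sparc, which did not fall and gave 947 of the sum in WT 1 and 1137 of 5540 in DKO 4. The separation of the groups by this ratio thus rests in part on Sparc. The ratio does not show that Postn fell more than each of the other 9. Mfap5, Pi16 and Fn1 had log2 fold changes of -1.13, -1.02 and -0.97, more negative than the -0.87 of Postn. The mean ratio was 0.138 ± 0.00269 in WT and 0.107 ± 0.0185 in DKO (SD, n = 3), a log2 difference of -0.38. An exact two-sided permutation test gave p = 0.1. With 3 libraries against 3 it cannot give a smaller value, so it adds nothing to the lack of overlap. The difference was -0.43 when counts were taken per kb of exon, and it lay between -0.49 and -0.24 with single libraries left out.

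Levels of different genes were compared as normalized counts per kb of merged exon. In WT the order was Dcn (744), Sparc (281), Lum (278), Postn (133), Dpt (84.4), Fbn1 (83.1), Fn1 (58.2), Fbln1 (34.2), Pi16 (29.6) and Mfap5 (21.8). Of the neighbours in this order, only Dcn and Sparc, Lum and Postn, and Postn and Dpt had no overlap between libraries, and the ranges of the other neighbours overlapped. Compared within each library, Fbn1 was above Fn1, Fn1 above Fbln1 and Pi16 above Mfap5 in all 3 WT libraries. Sparc over Lum, Dpt over Fbn1 and Fbln1 over Pi16 held in 2 of 3. In DKO the level per kb was 538 for Dcn, 298 for Sparc, 187 for Lum and 72.8 for Postn. There Sparc lay above Lum in all libraries without overlap. The range of Postn overlapped that of its next neighbour, Fbn1 (51.2), but Postn was above Fbn1 within each of the 3 DKO libraries. The bottom of the order, Fn1, Fbln1, Pi16 and Mfap5, was in the same sequence in both groups, and the range of each overlapped that of its neighbour. Within each of the 3 DKO libraries this sequence held throughout.

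Genes that work with these 10 were described from lists of proteoglycans, fibulins, microfibril genes, matricellular genes, integrins and processing enzymes. Of the 59 listed genes, all tested, 8 were called lower in DKO and 0 higher in DESeq2, against 1.88% and 1.02% of all rows. At an unadjusted p under 0.05 in DESeq2, 1 was higher, Ltbp3, and 27 were lower, against 7.26% of all rows lower. The median log2 fold change of the 59 genes was -0.44, and 52 of them had a negative value, against 49.8% of all rows. edgeR called 0 of the 59, with 29 at an unadjusted p under 0.05, and limma-voom called 0, with 26.

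Among 10 small leucine-rich proteoglycans, Bgn and Ogn fell. Bgn encodes biglycan, the closest relative of decorin, and had 942, 769 and 1351 normalized counts in WT against 742, 576 and 541 in DKO (log2 fold change -0.72, adjusted p = 0.0141 in DESeq2). Ogn encodes osteoglycin and had 414, 330 and 503 in WT and 291, 222 and 184 in DKO (log2 fold change -0.84, adjusted p = 0.00500 in DESeq2). In both, no DKO library reached the lowest WT library, WT 4. Kera and Epyc, which follow Lum on chromosome 10 after 34.2 and a further 30.4 kb, were barely counted, with at most 7.17 normalized counts of Kera and 26.9 of Epyc in any library.

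None of the 7 fibulins and hemicentins was called in DESeq2, edgeR or limma-voom, and 1 had an unadjusted p under 0.05 in each, Efemp1 (log2 fold change -0.65, adjusted p = 0.0865 in DESeq2). Fbln2 and Hmcn1 had log2 fold changes of -0.23 and -0.16. Of the 12 microfibril and elastic fibre genes, 0 were called in any of the 3 tools and 5 had an unadjusted p under 0.05 in each. Ltbp1, a latent TGF-β binding protein attached to fibrillin, had a log2 fold change of -0.47 (adjusted p = 0.0514 in DESeq2), and Loxl1, an elastin cross-linking enzyme, had -0.97 (adjusted p = 0.0626). The abundant Ltbp3 and Ltbp4 had positive values of 0.23 and 0.03 and did not pass the test.

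Of 13 matricellular genes, Tgfbi and Fstl1 fell. Tgfbi encodes the paralog of periostin and shares its fasciclin domains. It had 383, 367 and 353 normalized counts in WT against 287, 249 and 240 in DKO, and all DKO libraries were below WT (log2 fold change -0.51, adjusted p = 0.0250 in DESeq2). Fstl1, a follistatin-like relative of Sparc, had 563, 503 and 686 in WT and 464, 388 and 370 in DKO (log2 fold change -0.52, adjusted p = 0.0370 in DESeq2). Sparcl1, the closest relative of Sparc, had a log2 fold change of -0.00 (adjusted p = 0.999 in DESeq2), and its groups overlapped.

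Of 8 integrin subunits, Itgb3, Itga8 and Itga4 fell. Itgb3 pairs with αv into a receptor for periostin and fibronectin and had 134, 159 and 158 normalized counts in WT against 94.9, 71.1 and 65.7 in DKO (log2 fold change -0.95, adjusted p = 0.00423 in DESeq2). Itga8, the partner of β1 found on smooth muscle and other contractile stromal cells, had 491, 510 and 539 in WT and 367, 239 and 251 in DKO (log2 fold change -0.84, adjusted p = 4.05e-04 in DESeq2). Itga4, a subunit of a fibronectin receptor carried mainly by leukocytes, had 436, 128 and 208 in WT and 98.7, 70.0 and 74.9 in DKO (log2 fold change -1.66, adjusted p = 5.68e-04 in DESeq2). All DKO libraries were below all WT libraries for these 3 genes, and WT 1 was far above the rest for Itga4. The abundant subunits Itgb1, Itgb5 and Itgav had log2 fold changes of -0.055, -0.10 and -0.19 and did not pass the test. Of 9 enzymes that process or cross-link matrix, 1 fell, Tgm2, a transglutaminase that cross-links fibronectin, from 924 ± 68.3 to 613 ± 106 (SD, n = 3, log2 fold change -0.59, adjusted p = 0.00382 in DESeq2). Itga8 was the only one of the 8 called genes that was called whichever library was left out, where the highest adjusted p was 0.0345. Without WT 5 the DESeq2 adjusted p-values of Bgn, Ogn, Tgfbi, Fstl1, Itgb3 and Tgm2 were 0.322, 0.191, 0.126, 0.418, 0.0878 and 0.0653, and that of Itga4 was 0.319 without DKO 5. With a library left out, Bgn, Ogn, Fstl1 and Tgm2 were called only without WT 4 or DKO 1, Tgfbi only without DKO 1, Itgb3 only without WT 1, WT 4 or DKO 1, and Itga4 only without WT 4 or WT 5.

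**Figure D4:**
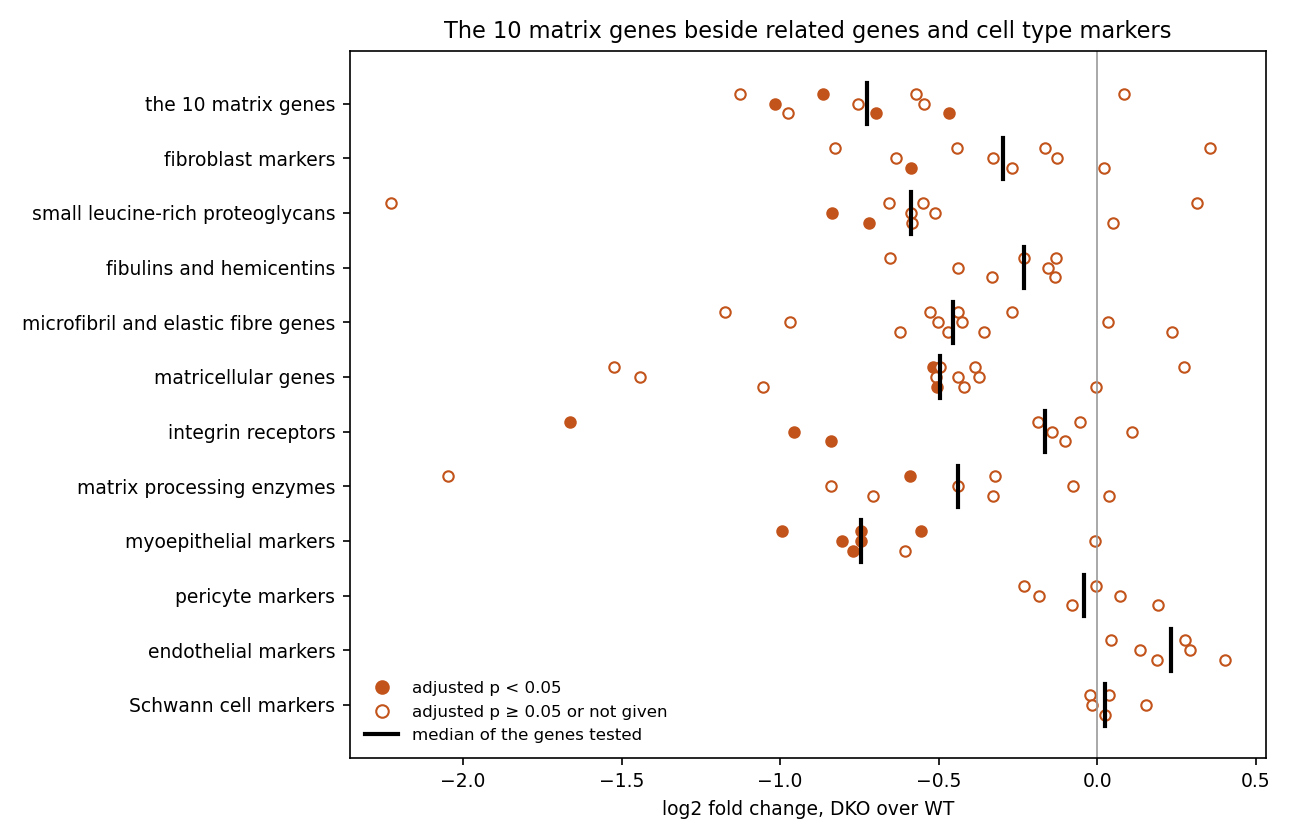
Log2 fold change of DKO over WT (x axis) for every tested gene of each list, with the median as a vertical bar. Filled points had a DESeq2 adjusted p under 0.05. The median was -0.73 for the 10 matrix genes, -0.30 for other fibroblast markers, -0.74 for myoepithelial markers and -0.04 for pericyte markers.

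The 10 matrix genes were set beside 10 further fibroblast markers, all of which were counted in every library. Changes in RNA of a whole gland cannot show which cells make a gene, so the label as fibroblast genes was not tested. Of these 10 markers, 8 had a negative log2 fold change, against 49.8% of all rows. An unadjusted p under 0.05 was reached by 6 in DESeq2, 4 in edgeR and 4 in limma-voom, and 1 of these in each, Dpp4, was higher. Ly6a and Thy1 had log2 fold changes of -0.63 and -0.83 (adjusted p = 0.0762 and 0.177 in DESeq2). Only 1 marker was called lower in DESeq2, Pdgfra, the receptor that marks fibroblasts in most mouse tissues. Pdgfra had 1146, 1045 and 1431 normalized counts in WT against 1025, 703 and 684 in DKO, with a log2 fold change of -0.59 (adjusted p = 0.0300 in DESeq2, and 0.437 without WT 5, with calls kept only without WT 4 or DKO 1). The fibrillar collagens Col3a1, Col1a2 and Col1a1 had log2 fold changes of -0.33, -0.44 and -0.16, with overlapping groups and DESeq2 adjusted p-values of 0.362, 0.188 and 0.860. The summed level of the list was 10921 to 14655 normalized counts in WT against 9785 to 12203 in DKO, so the groups overlapped, and WT 5 and DKO 1 were again the highest of their groups. Dpp4, a peptidase that marks adventitial fibroblasts, was higher in every DKO library than in any WT library and had a log2 fold change of 0.35 (adjusted p = 0.0868 in DESeq2).

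Markers of other cell types moved with the groups too. Of 8 tested myoepithelial markers, 6 were called lower in DESeq2, Acta2, Myh11, Cnn1, Tagln, Mylk and Krt14. The sum of that list, given beside Postn, did not overlap between the groups, the basal marker Krt5 had a log2 fold change of -0.01, and Oxtr was under 10 counts in all libraries together. Krt14 was called with a library left out only without DKO 1, and its highest adjusted p in DESeq2 was 0.124, without DKO 5. Acta2, smooth muscle actin, had 2695, 2429 and 2468 normalized counts in WT against 1730, 1456 and 1346 in DKO (log2 fold change -0.74, adjusted p = 1.49e-07 in DESeq2). Of the WT libraries, WT 1 and not WT 5 was the highest for Acta2 and Myh11 and for the summed list. WT 4 was the lowest WT library and DKO 1 the highest DKO library for that sum, as for most of the matrix genes. In edgeR and limma-voom, 0 of the 8 myoepithelial markers were called and 7 had an unadjusted p under 0.05, and Pdgfra and Aqp5 were not called either. Acinar markers summed to 23417 to 28915 in WT and 29950 to 46026 in DKO, and 1 of 3, the water channel Aqp5, was called higher (log2 fold change 0.54, adjusted p = 0.0165 in DESeq2, and 0.283 without WT 5, with calls kept only without WT 4 or DKO 1). Leukocyte markers summed to 1245 to 2420 in WT and 813 to 1190 in DKO, with 0 of 6 called in DESeq2, edgeR or limma-voom and 4, 5 and 4 at an unadjusted p under 0.05. All 6 had a negative log2 fold change, against 49.8% of all rows, and their median was -1.87. Every DKO library lay below every WT library for 3 of them, against 10.5% of all rows. At an unadjusted p under 0.05 in DESeq2, 7.26% of all rows were lower. The part of these cell types in the levels of the 10 matrix genes was not tested.

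No gene of the other marker lists was called in DESeq2. Pericyte markers summed to 2237 to 2599 normalized counts in WT against 2270 to 2576 in DKO, and 0 of 6 were called or had an unadjusted p under 0.05 in DESeq2, edgeR or limma-voom. Schwann cell markers summed to 2006 to 2254 in WT and 2050 to 2167 in DKO, again with 0 of 5 under an unadjusted p of 0.05 in the 3 tools. Endothelial markers summed to 1566 to 1916 in WT and 1779 to 2276 in DKO, with a median log2 fold change of 0.23. At an unadjusted p under 0.05, 2 of 6 were higher in DESeq2, 3 in edgeR and 2 in limma-voom. A negative log2 fold change was found for 0 of the 6, against 49.8% of all rows. Every DKO library lay above every WT library for 2 of them, against 1832 of the 18606 rows tested. Of 6 adipocyte markers, 5 were under 10 counts in all libraries together, Adipoq, Plin1, Cidec, Lep and Retn. The skeletal muscle marker Myh4 was at 0 in all libraries, and its list summed to at most 54.8 normalized counts in any library. Mesothelial markers summed to 12.9, 2.93 and 34.9 normalized counts in WT 1, 4 and 5 and to 19.9, 3.14 and 6.92 in DKO 1, 4 and 5. WT 5 and DKO 1 were thus the highest of their groups, at low counts, and 3 of these 4 markers were under 10 counts in all libraries together. The part of these cells in the levels of the matrix genes was not tested.

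Some counts could include reads of a neighbour, since the libraries did not mark strand. Gm9913 shares 2442 exon bases with Fbn1 on the opposite strand and had at most 2 counts in a library. Apol7d shares 292 exon bases with Fn1 and had at most 1 count. AC162182.1 shares 222 exon bases with Pi16 and was not analysed here. Reads of such pairs cannot be told apart.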

How the data were processed

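RNA of 3 WT and 3 DKO submandibular glands was sequenced by the authors from unstranded Nextera XT libraries on a HiSeq2500. The submitters' processing notes name STAR 2.5.2a, DESeq2, edgeR, limma and the builds GRCm38, mm10 and GRCh38 with no role; the counting tool and annotation are not given in the sources used here. The raw counts that the authors deposited for each gene symbol, without a filter, were tested. A filtered count table and a table named for CPM and TMM scaling were not used here.

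Rows with at least 10 summed counts were tested with DESeq2 1.42.0 (R 4.3.3; median-of-ratios size factors, two-sided Wald test, default Cook's and independent filters at 0.1, Benjamini-Hochberg adjustment over the 16050 rows that passed those filters, threshold 0.05), the tool that the study's methods name. The other 2556 of the 18606 rows tested were given no adjusted p. Normalized counts are counts divided by size factors, and log2 fold changes are DKO over WT with SE. The code of the fits was checked on simulated counts with the same spread for all genes. That check does not show how the calls hold at the spread of these libraries. Alternatives were edgeR 4.0.16, limma-voom 3.58.1, TMM factors, total counts, all rows with a count, a minimum of 10 counts in 3 or more libraries, a replicate block and leaving out single libraries. Likeness was the root mean square difference of log2(normalized count + 1), centred per gene, over rows with a mean of at least 50. Positions and exon lengths are of GENCODE M21 (GRCm38), in which 39469 of 43280 row names matched a symbol. Named genes were the 10 genes, the targeted genes, listed genes past the threshold or else examples by level, and nearest rows by likeness; some examples were chosen after their values were seen. The genes and lists were chosen with earlier results of these data known, so no list was tested as a set.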

Additional observations from a re-analysis of the deposited data

How the results depend on the processing

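Of 130 refits of single matrix genes (13 alternatives for 10 genes), 99 kept direction and side of the threshold, 24 lost and 6 gained a call, and 1 reversed, Sparc, at -0.15 with total counts. The 9 negative genes were negative in all 14 fits. The number of matrix genes called lower was 0 with edgeR, 0 with limma-voom and 1 to 5 with a library left out. The number of rows called, 539, was 10 with edgeR, 7 with limma-voom, 1469 with total counts and 149 to 817 with a library left out; the causes were not tested. The median of the 10 genes ranged from -0.96 with total counts to -0.52 without WT 5. The 16 listed genes called with all libraries kept their call in 55 of 112 refits, by edgeR or with a library left out, and lost it in 57.

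Deviations from group means showed no pairing by replicate number, and those of same-numbered libraries correlated at -0.13, -0.02 and -0.26. With 3 libraries a group, this check cannot show that the numbers are unpaired. No library correlated best with its own number. With the replicate block, 343 rows were called and Pi16 had an adjusted p of 0.0908 in DESeq2, while Postn, Dcn and Fbn1 were called. Low counts, as for Mfap5, and 3 libraries a group limit the precision.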

Other observations

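Of 11488 other rows with a mean of at least 50 normalized counts, the 5 nearest in pattern to Postn over the 6 libraries were Ano4, P2ry1, Nt5e, Pak3 and 2610507I01Rik, with root mean square differences of 0.0771, 0.107, 0.120, 0.140 and 0.143 on the log2 scale. Of these, P2ry1 (log2 fold change -0.84, adjusted p = 0.0475 in DESeq2) and 2610507I01Rik (-0.87, adjusted p = 0.0141) were called lower. The matrix genes were farther from Postn, with Lum at rank 181, Dcn at 218 and Fbn1 at 307, while Sparc and Fbln1 were at 6062 and 6198.

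The 5 rows nearest to Dcn were Sema5a, Bicc1, Gsn, Prelp and Lhfp, with differences of 0.0425, 0.0452, 0.0550, 0.0581 and 0.0595. Gsn, which encodes gelsolin, was called lower (log2 fold change -0.44, adjusted p = 0.0482 in DESeq2), and Prelp is a small leucine-rich proteoglycan like Dcn. Lum was at rank 293 from Dcn, Fbn1 at 710 and Postn at 1934. These orders describe 6 libraries and were not tested.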
